A study of Rattus norvegicus with 12 samples.

Results

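*Nppa* (ENSRNOG00000008176) and *Nppb* (ENSRNOG00000008141), the genes of the cardiac natriuretic peptides, were followed in neonatal rat ventricular myocytes (NRVM) under an adrenergic stress and a transcriptional kinase inhibitor. Both were chosen by their identifiers, and both are present among the 15920 genes of the RNA-seq table, which makes 2 members of 15920. The cells were prepared from ventricles of Sprague Dawley pups 2 to 3 days after birth, preplated and exposed to BrdU for 24 h against dividing nonmyocytes, and kept in serum-free medium for 48 h before treatment. There were 4 groups of 3 libraries: baseline (vehicle), THZ1 (10 nM), PE (phenylephrine, 100 µM) and PE + THZ1 (100 µM and 10 nM). PE is an agonist of the α1-adrenergic receptor that makes cultured cardiomyocytes grow, and THZ1 is a covalent inhibitor of the kinases CDK7, CDK12 and CDK13, which phosphorylate the tail of RNA polymerase II. Treatment lasted 48 h by the labels, but the columns with PE, alone or with THZ1, are named for 24 h. By the study's methods vehicle or THZ1 was added 3 h before PE, so the PE + THZ1 cells met THZ1 first. A culture of newborn cells without serum is a model of the isolated myocyte and lacks the load and the other cells of a heart. The purity of the cultures could not be read from marker genes, since the table carries identifiers without symbols and 0 of them could be paired with a symbol here.

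*Nppa* encodes the precursor of atrial natriuretic peptide and *Nppb* that of brain natriuretic peptide. Both hormones are released by cardiomyocytes, bind a receptor with guanylyl cyclase activity and raise cGMP, which promotes sodium excretion and relaxes vessels. In the ventricle both genes are active before birth, decline afterwards, and are switched on again by hypertrophic stress, so that they serve as standard markers of it. They lie beside each other in the same orientation, and in the rat assembly GRCr8 their annotated starts are 12.2 kb apart with 0 other protein-coding genes between them.

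Because the 2 genes are neighbours and both respond to PE, the 250 bases before each annotated start are shown, as listed by RefSeq on the plus strand of GRCr8, with *Nppb* at chr5:163699758-163700007 and *Nppa* at chr5:163711934-163712183. Capitals mark matches, on either strand, to motifs of cardiac and general promoter factors.
Nppb: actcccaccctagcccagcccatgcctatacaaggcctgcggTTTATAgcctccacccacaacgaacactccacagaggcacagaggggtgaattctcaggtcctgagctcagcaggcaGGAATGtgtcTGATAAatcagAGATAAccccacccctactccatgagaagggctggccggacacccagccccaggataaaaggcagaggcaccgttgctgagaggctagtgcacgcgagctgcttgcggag
Nppa: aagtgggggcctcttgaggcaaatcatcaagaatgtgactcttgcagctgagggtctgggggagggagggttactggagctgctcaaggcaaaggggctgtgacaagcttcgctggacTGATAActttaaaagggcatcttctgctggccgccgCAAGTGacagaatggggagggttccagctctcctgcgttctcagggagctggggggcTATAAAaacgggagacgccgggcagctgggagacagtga

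A GATA motif, the letters GATA after A or T and before A or G, was found in both windows. *Nppa* had 1 match, TGATAA from base 132 to base 127 before the start. *Nppb* had 2 matches, TGATAA from base 121 to 116 and AGATAA from base 110 to 105. Of all 33469 promoter windows of this length, 27% held such a match, so that its presence alone sets neither gene apart. An M-CAT motif (CATTCC, bound by TEAD factors) was matched in *Nppb* only, on the minus strand from base 131 to 126, and was present in 12.1% of all windows. The letters CAAGTG, a motif of the cardiac factor NKX2-5, were matched in *Nppa* only, from base 96 to 91, and in 11.7% of all windows. TATAAA was matched in *Nppa* from base 39 to 34 and in *Nppb* on the minus strand from base 208 to 203, and 12.9% of all windows held it. The *Nppb* match lies far from the start and against the direction of the gene, so no TATA box of *Nppb* is read from it. No exact match in either window was found for the AP-1 motif (TGANTCA with C or G at N, 4.05% of all windows) or the cAMP response element TGACGTCA (1.59%). Nor was one found for the CArG box of serum response factor (CCWWWWWWGG with A or T at W, 1.5%). Near matches were not counted. In *Nppb*, letters GATAAA lie nearer the start than the marked matches and differ from TATAAA in 1 base. In *Nppa*, CTTTAAAAGG directly follows the marked TGATAA and differs from the CArG pattern in 1 base. None of the marked matches overlapped another. These matches describe letters in a short window and no binding was measured.

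The deposited values are normalized counts, that is, reads per gene divided by a size factor per library. The reads could be recovered from them, with totals of 30458862 to 45885754 per library. The lowest count of either member in any library was 3864 reads, for which the counting error alone is 1.61%, so that the spread between libraries and not depth limits the precision. A single limma fit to log2(normalized count + 1) in all 12 libraries gave the tests. It covered the 14312 genes whose normalized counts averaged 10 or more, both members among them, and SE is the standard error of a log2 change from it. Several comparisons share a group, so they are not independent of each other. Adjusted p-values are Benjamini-Hochberg values over all genes tested. They and the SEs rest on a single variance per gene, pooled over the groups and drawn towards that of genes of similar mean. They therefore do not follow the spread of a gene within the groups compared, which was unequal. The log2 SD of *Nppa* was 0.49 at baseline and 0.05 with THZ1 alone. The labels do not say whether the 3 of a group came from separate cell preparations, so only differences between these libraries are covered. Baseline replicate 2 stood apart from the other libraries. Its median absolute log2 difference from the other baseline libraries was 0.144 over the genes tested, whereas each of the other 11 libraries was within 0.0577 to 0.105 of its own group. It also held the highest baseline value of both members, and each comparison with the baseline group is given with and without it. Because it was the highest, leaving it out raises the change of both members with PE by construction. The fit without it rests on 2 baseline libraries, so its smaller p-values are no added support. The ranks, count gains and gene likenesses without it were added after seeing the data. In bulk RNA, fewer cells of a type and less RNA per cell cannot be told apart. Every rise and fall given here is relative to the other RNA of a library. A change in the total RNA per cell would not show under any scaling used.

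*Nppa* was raised by PE in both settings, 8.96-fold without THZ1 and 1.65-fold with it. At baseline its normalized count was 19671, 35096 and 19451 in replicates 1 to 3. With PE it was 212186, 200278 and 252496. All 3 PE libraries lay above all baseline libraries, by at least 5.71-fold between the closest pair. Such separation is described here and below for the members only, and its share over all genes was not counted. With PE + THZ1 the counts were 21178, 22891 and 24775, within the range spanned by the baseline libraries. That range covers them only through baseline replicate 2, since all 3 lay above baseline replicates 1 and 3. With THZ1 alone they were 14040, 13341 and 14339, below every baseline library and below every PE + THZ1 library. *Nppa* took 0.549 ± 0.0686% (SD, n = 3) of all reads with PE, against 0.0661 ± 0.0277% at baseline, 0.0407 ± 0.00135% with THZ1 and 0.0679 ± 0.00433% with PE + THZ1.

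*Nppb* was also highest with PE and lowest with THZ1 alone. It rose 4.39-fold with PE without THZ1 and 2.48-fold with it. Its normalized count at baseline was 11446, 19054 and 13931. With PE it was 63296, 62879 and 69084, and each of these was above every baseline value. With PE + THZ1 it was 9128, 10572 and 12942, a range that overlaps the lower part of the baseline range. With THZ1 alone it was 4404, 4135 and 4624, well below all other libraries. *Nppb* took 0.161 ± 0.00889% of all reads with PE, 0.0394 ± 0.0123% at baseline, 0.0128 ± 0.00069% with THZ1 and 0.0322 ± 0.00516% with PE + THZ1 (SD, n = 3). For both genes the groups ranked PE highest and THZ1 alone lowest. Baseline and PE + THZ1, which are neighbours in this order, overlapped, for *Nppa* only through baseline replicate 2.

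**Figure D1:**
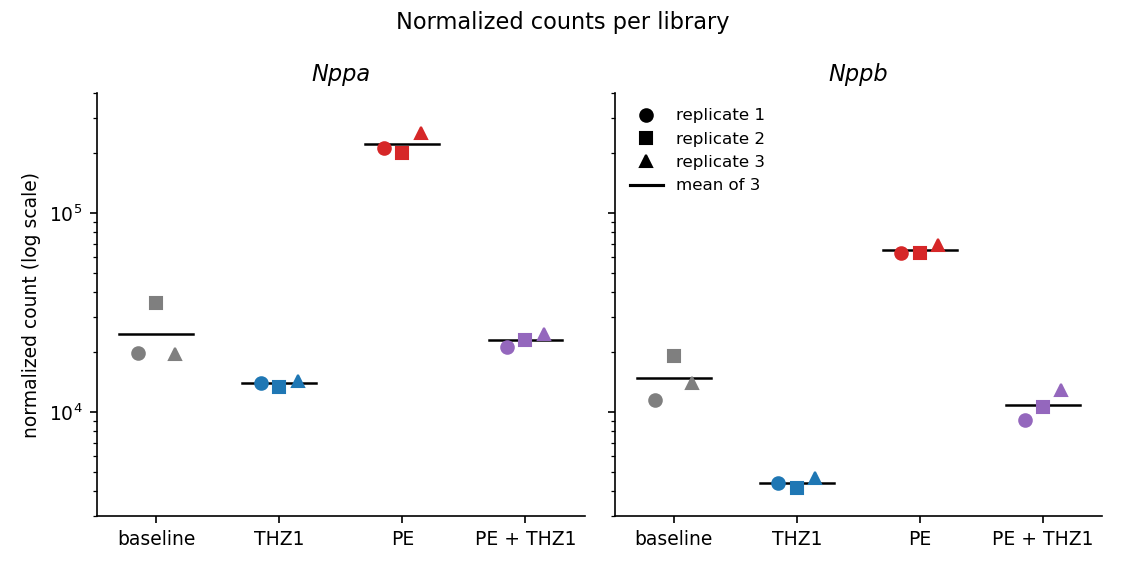
Normalized counts of *Nppa* (left) and *Nppb* (right) on a log axis in each of the 12 libraries, with the group on the horizontal axis, a symbol for each replicate number and a line at the mean of 3. The PE libraries are the highest and the THZ1 libraries the lowest for both genes, and baseline replicate 2 lies above the other baseline libraries.

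The first comparison asked how far PE raised the peptides in untreated cells. The mean normalized count of *Nppa* rose from 24739 ± 8970 to 221653 ± 27366 (SD, n = 3), which is 8.96-fold. On the scale of log2(normalized count + 1) the change was 3.21 (SE 0.15, limma adjusted p = 2.8e-11). This was the largest rise of all 14312 genes tested. *Nppb* rose from 14811 ± 3880 to 65087 ± 3468, which is 4.39-fold, with a log2 change of 2.17 (SE 0.13, limma adjusted p = 5.9e-10). It ranked 25th from the top among the genes tested. PE raised 30.1% of all genes tested at an adjusted p under 0.05, so a rise with PE was common and the members' place among all genes is given by the size of theirs. Without baseline replicate 2, the fold was 11.3 for *Nppa* (log2 change 3.50, SE 0.07, limma adjusted p = 9.2e-19). It was 5.13 for *Nppb* (log2 change 2.36, SE 0.09, limma adjusted p = 1.3e-14), and their ranks were 1 and 27. With baseline replicate 1 or 3 left out instead, the log2 change was 3.08 or 3.07 for *Nppa* and 2.00 or 2.14 for *Nppb*.

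The second comparison asked what THZ1 did in the presence of PE, and both peptides fell. *Nppa* dropped to 22948 ± 1799, or 10.4% of its level with PE, with a log2 change of -3.27 (SE 0.15, limma adjusted p = 7.1e-12). *Nppb* dropped to 10881 ± 1926, or 16.7% of its level with PE, with a log2 change of -2.59 (SE 0.13, limma adjusted p = 2.4e-11). The groups did not overlap for either gene. Of all genes tested, 31.3% were lower with PE + THZ1 than with PE. *Nppa* ranked 18th and *Nppb* 57th from the bottom by log2 change. With the libraries scaled to equal totals the log2 changes were -3.01 and -2.34, while the median change of all genes moved from 0.0053 to 0.26, so that both falls stayed far below that median.

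THZ1 also lowered both peptides without PE, *Nppb* more than *Nppa*. *Nppa* with THZ1 alone was 13907 ± 512, or 56.2% of baseline, with a log2 change of -0.77 (SE 0.15, limma adjusted p = 0.00043). *Nppb* was 4387 ± 245, or 29.6% of baseline, with a log2 change of -1.72 (SE 0.13, limma adjusted p = 1.2e-08). The THZ1 libraries did not overlap the baseline libraries for either gene. By real-time PCR in NRVM the paper reports no significant effect of THZ1 on these genes without PE. The RNA-seq values differ from that, and the reason was not tested. THZ1 alone lowered 26.1% of all genes tested, and by log2 change *Nppb* was 103rd and *Nppa* 871st from the bottom. Without baseline replicate 2 the log2 change was -0.49 for *Nppa* and -1.53 for *Nppb*, with adjusted p-values of 4.8e-06 and 2.2e-11 from limma. The rank of *Nppa* then moved to 1891st and that of *Nppb* to 165th from the bottom. Scaling to equal totals moved the median change of all genes from 0.0013 to 0.15 in this comparison, and gave -0.62 for *Nppa* and -1.57 for *Nppb*.

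PE still raised both peptides when THZ1 was present. From THZ1 alone to PE + THZ1, *Nppa* rose 1.65-fold, with a log2 change of 0.72 (SE 0.15, limma adjusted p = 0.0023). *Nppb* rose 2.48-fold, with a log2 change of 1.30 (SE 0.13, limma adjusted p = 2.1e-06). All 3 PE + THZ1 libraries were above all 3 THZ1 libraries for both genes. The baseline libraries do not enter these log2 changes, but they enter the pooled variance behind the SEs and p-values. In the fit without baseline replicate 2 the SE was 0.06 for *Nppa* (limma adjusted p = 1.7e-08) and 0.08 for *Nppb* (limma adjusted p = 2.5e-10). Of all genes tested, 12.6% were raised in it. *Nppb* was 42nd and *Nppa* 296th from the top, which is the reverse of their order under PE without THZ1. In normalized counts, the gain with PE under THZ1 was 9041 for *Nppa* and 6494 for *Nppb*, or 4.59% and 12.9% of the gains without THZ1, which were 196914 and 50276. These shares were 4.47% and 12.4% without baseline replicate 2.

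**Figure D2:**
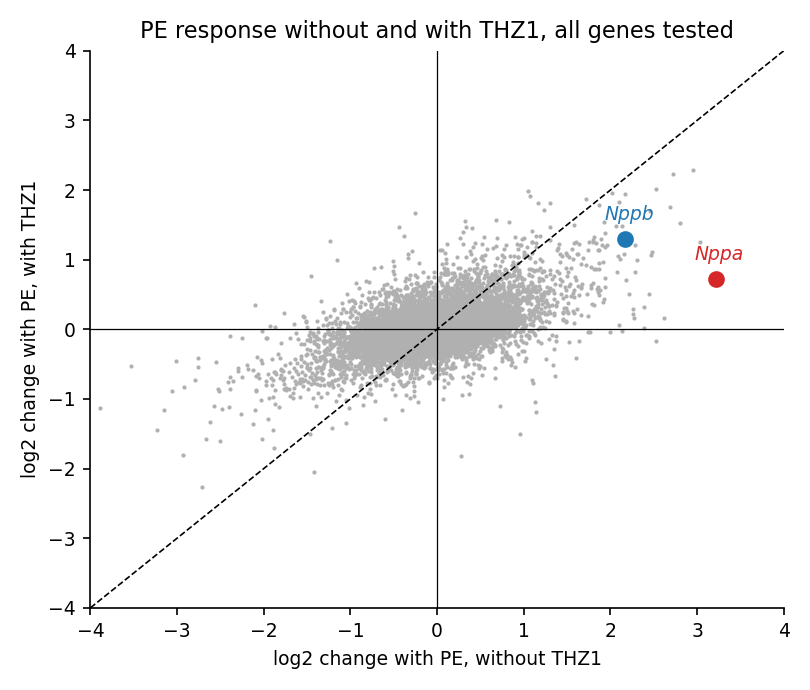
Log2 change with PE in cells without THZ1 (horizontal) against the log2 change with PE in cells with THZ1 (vertical) for all 14312 genes tested. Each grey point is a gene, the dashed line marks equal changes, and the axes share no library. *Nppa* lies farthest to the right at 3.21 and 0.72, and *Nppb* lies nearer the line of equal changes at 2.17 and 1.30.

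The PE + THZ1 level was then set against baseline. *Nppa* had a log2 change of -0.05 (95% interval -0.38 to 0.27, adjusted p = 0.79 from limma), and the libraries of both groups overlapped. With equal library totals it was 0.11, so its direction depends on the scaling. It also rests on baseline replicate 2. Without it *Nppa* was 1.17-fold higher with PE + THZ1 than at baseline, with a log2 change of 0.23 (SE 0.07, limma adjusted p = 0.0089). With baseline replicate 1 or 3 left out instead, the log2 change of *Nppa* was -0.19 or -0.20. *Nppb* was at 73.5% of baseline, with a log2 change of -0.43 (95% interval -0.71 to -0.15, adjusted p = 0.012 from limma), but the libraries overlapped, and 27.4% of all genes tested were lower in this comparison. Without baseline replicate 2 its log2 change was -0.23 (adjusted p = 0.042 from limma), and with equal library totals it was -0.26 (adjusted p = 0.14 from limma). Without PE + THZ1 replicate 1 it was -0.31 (adjusted p = 0.084 from limma). The step from PE to PE + THZ1 amounted to 101.7% ± 3.52 (SD, n = 3) of the step from baseline to PE for *Nppa* and 119.7% ± 11.7 for *Nppb* on the log2 scale. These SDs cover the spread of the 3 PE + THZ1 libraries only, with the PE and baseline means held fixed, so they leave out the spread at baseline. Without baseline replicate 2 these shares were 93.5% and 109.7%.

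The interaction term asked whether THZ1 acted more strongly on the peptides in the presence of PE. It was -2.49 on the log2 scale for *Nppa* (SE 0.22, limma adjusted p = 3.9e-07) and -0.87 for *Nppb* (SE 0.19, limma adjusted p = 0.0021). THZ1 thus lowered both genes by a larger factor with PE than at rest, and 18.3% of all genes tested had an interaction in this direction. The term of *Nppa* was the second lowest of the 14312 genes, and *Nppb* ranked 243rd. Without baseline replicate 2 the terms were -2.77 and -1.07 (limma adjusted p = 1.5e-14 and 9.4e-07), ranking 5th and 201st from the bottom. Equal library totals moved the median term of all genes from -0.017 to 0.090 and gave -2.39 for *Nppa* and -0.76 for *Nppb*.

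**Figure D3:**
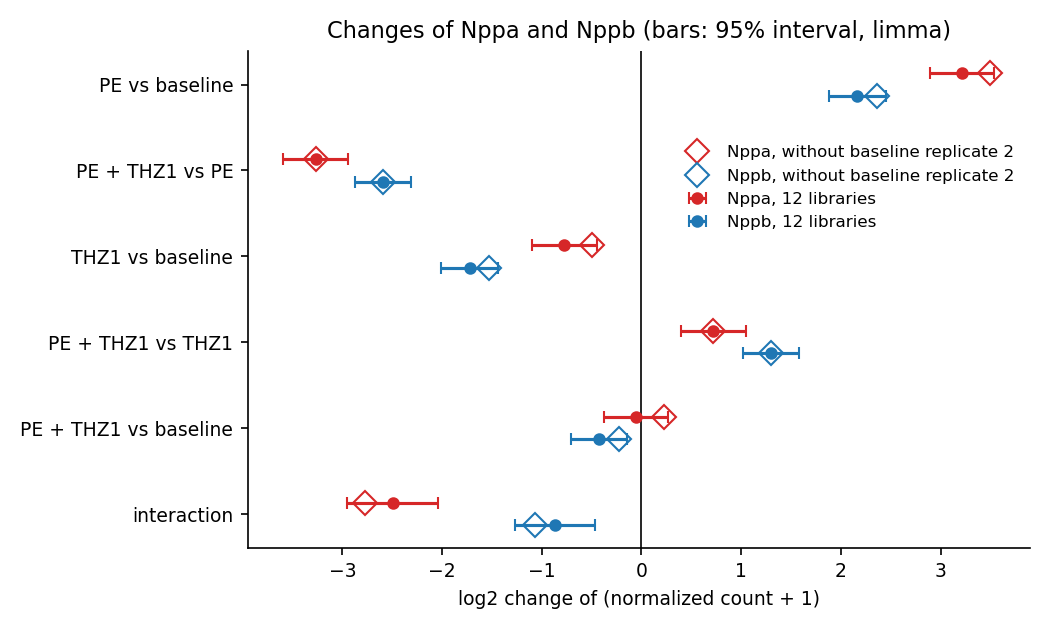
Log2 change of *Nppa* (red) and *Nppb* (blue) in each comparison, with filled points and 95% intervals from limma for all 12 libraries and open diamonds for the fit without baseline replicate 2. Both genes rise with PE and fall with THZ1 in all comparisons but PE + THZ1 against baseline, where *Nppa* lies at -0.05 and moves to 0.23 without that library.

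The ratio of *Nppb* to *Nppa* reads within a library does not depend on how libraries are scaled, and was used to compare the responses of the genes. It is not a ratio of transcript numbers, because counts were not divided by transcript length. The ratio was 0.582, 0.543 and 0.716 at baseline, a mean of 0.614 ± 0.0909 (SD, n = 3). With PE it was 0.298, 0.314 and 0.274, and with THZ1 alone 0.314, 0.310 and 0.322. With PE + THZ1 it was 0.431, 0.462 and 0.522. Every library with a single drug thus had a lower ratio than every baseline library, and the libraries with both drugs lay between, with no overlap with baseline or with either single drug. PE without THZ1 changed the log2 ratio by -1.05 (SE 0.13), which is the amount by which the *Nppa* response exceeded that of *Nppb*. PE with THZ1 present changed it by 0.58 (SE 0.08), so that here the *Nppb* response was the larger. THZ1 changed the log2 ratio by -0.95 (SE 0.12) at rest and by 0.67 (SE 0.10) with PE, and PE + THZ1 differed from baseline by -0.37 (SE 0.14). The differences from baseline became -1.13 for PE, -1.03 for THZ1 and -0.46 for PE + THZ1 without baseline replicate 2. Each of these 5 differences had an exact permutation p of 0.1 (two-sided, adjusted p = 0.1 over the 5), which is the smallest value that 3 libraries against 3 can give, so none could pass 0.05. With any single library left out, none of the 5 differences changed sign.

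**Figure D4:**
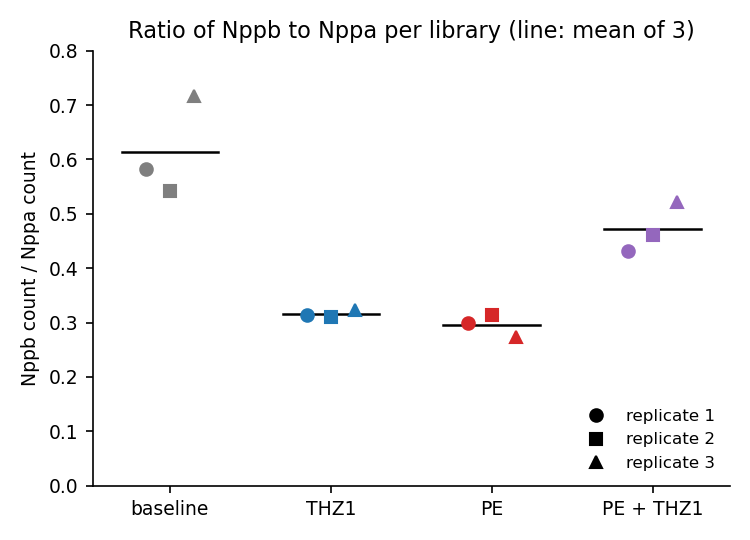
Ratio of *Nppb* to *Nppa* counts (vertical axis, from 0) in each of the 12 libraries by group, with a symbol for each replicate number and a line at the mean of 3. The ratio is highest at baseline (0.614), lowest with PE (0.295) and with THZ1 (0.315), and between them with PE + THZ1 (0.472).

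In the clustering of all genes that the authors deposited with the values, both members are in cluster 2, which is 1 of 6 clusters and holds 3740 genes or 23.5% of the table. The paper numbers its clusters differently and names both genes in cluster 5, raised by PE and suppressed with THZ1. Its own cluster 2 is a subset lowered by PE, so the deposited number is not the paper's. Within the deposited cluster the genes differed in whom they resembled most. Over the 12 libraries, which fall into 4 groups, Pearson's r of log2(normalized count + 1) between *Nppa* and *Nppb* was 0.960. Of the 11162 other genes whose normalized counts averaged 100 or more, 265 were more like *Nppa* than *Nppb* was, and 337 were more like *Nppb* than *Nppa* was. High values of r were common, and 969 genes exceeded 0.9 with *Nppa* and 1073 with *Nppb*. All genes share the libraries, their scaling and the 4 groups, and what each contributes to r was not tested. The 5 genes most like *Nppa* had r of 0.994 to 0.998 and the 5 most like *Nppb* 0.996 to 0.999, with 0 in common, and 13 of the 100 most like each were shared.

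The gene most like *Nppa* was ENSRNOG00000012658. Its normalized count was 3630 ± 774 at baseline (SD, n = 3), 2949 ± 79.3 with THZ1, 9803 ± 621 with PE and 3519 ± 37.9 with PE + THZ1. THZ1 alone changed it by -0.28 on the log2 scale, against -0.77 for *Nppa*, and PE by 1.45 against 3.21. The gene most like *Nppb* was ENSRNOG00000013621, with 2282 ± 536 at baseline, 817 ± 13.3 with THZ1, 6926 ± 363 with PE and 1731 ± 194 with PE + THZ1. Here the level with THZ1 alone was the lowest by a wide margin, as for *Nppb*. Both were picked for their likeness, so these levels are a description, and no symbol could be paired with either identifier. Without baseline replicate 2, 3 of the 5 genes most like *Nppa* and 4 of the 5 most like *Nppb* were again among the 5, and by rank correlation 1 and 0 were.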

How the data were processed

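Per the labels and the study's methods, polyadenylated RNA of NRVM was sequenced in single-end reads, aligned with TopHat2 2.1.1 to rn5 and counted on genes with htseq-count using strand. The authors divided the counts of each library by a DESeq2 size factor, so the deposited values are a normalized signal, and reads were recovered from its steps (100% of values whole within 0.01 of a read). Each of the 12 value columns was matched to a sample by its name, and an unnamed column gives the cluster number the authors assigned to the gene, a category derived from these same libraries. Replicate libraries were not identical, and none agreed within sampling noise.

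The main test was limma 3.58.1 in R 4.3.3 with a mean-dependent (trended) prior variance, a pseudocount of 1 and a two-sided threshold of 0.05 on the adjusted p. edgeR 4.0.16 and DESeq2 1.42.0 on recovered reads were alternatives, beside pseudocounts of 0.5 and 5, minimum means of 50 or none, equal totals, TMM, a fit of the groups compared only, no trend, the replicate number as a block, and each library left out. The fit was tested on simulated reads with the same dispersion for all genes and libraries. That test does not cover an outlying library such as the one at baseline. Ratios were tested with exact permutation tests in scipy 1.17.1, and Python 3.11.15 with numpy 2.4.6, pandas 2.3.3 and matplotlib 3.10.9 was used elsewhere. The genes named were to be both members, the members of lists of natriuretic peptide receptors, processing enzymes, cGMP effectors, promoter factors, other hypertrophy markers, kinases and cell type markers, and the 5 genes most like each member. As 0 of 15920 identifiers could be paired with a symbol among 47357 reference entries, the lists were not analysed here. The members and lists were chosen with earlier results of these data known.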

Additional observations from a re-analysis of the deposited data

Results flagged for a closer look

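The effect of THZ1 differed between cells with and without PE for both genes by the interaction term of limma, with -2.49 for *Nppa* and -0.87 for *Nppb* on the log2 scale. For *Nppa*, THZ1 left 10.4% of the level with PE and 56.2% of the level at rest. For *Nppb* the values were 16.7% and 29.6%. With each library left out in turn the terms ran from -2.77 to -2.35 for *Nppa* and from -1.07 to -0.70 for *Nppb*, the lowest of each without baseline replicate 2.

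The log2 ratio of *Nppb* to *Nppa* moved in opposite directions with PE, by -1.05 without THZ1 and by 0.58 with it. Every PE library was below every baseline library, and every PE + THZ1 library was above every THZ1 library. The difference between these effects was not tested.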

How the results depend on the processing

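For the interaction and for every comparison except PE + THZ1 against baseline, both genes kept their direction and an adjusted p under 0.05 in all alternatives run, edgeR and DESeq2 included. The highest adjusted p in these comparisons was 0.028 (*Nppa*, PE + THZ1 against THZ1, limma without a trend in the prior variance). PE + THZ1 against baseline was the comparison that depended on the setting. *Nppa* ran from -0.20 to 0.23 with each library left out, the upper value, past the threshold, without baseline replicate 2. *Nppb* ran from -0.60 to -0.23 and lost its call without PE + THZ1 replicate 1, with equal library totals (-0.26) and without a trend (-0.43, adjusted p = 0.06 from limma), and the cause was not tested. The step from PE to PE + THZ1 was also set against the step from baseline to PE. For *Nppa* this share was 93.5% to 106% with each library left out and 96.3% with equal totals. For *Nppb* it was 107.8% on the linear scale and 109.7% to 129.9% with each library left out.

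Equal totals moved the share of called genes that were higher from 54.5% to 37.4% for PE against baseline, from 49.3% to 77.2% for PE + THZ1 against PE, from 49.7% to 72.5% for THZ1 against baseline, from 49.4% to 74.3% for PE + THZ1 against baseline (median change of all genes 0.17) and from 43.2% to 73.2% for the interaction. The labels do not say what a replicate number stands for, and the numbers were not taken to pair the libraries because the correlation of deviations did not pass 0.1 in every pair. It did in 4 of 18 pairs of the same number (mean r 0.033) and in 3 of 36 other pairs (mean r -0.017). As a hint from the data towards shared numbers, 8 of 12 libraries correlated best with their own number. With the replicate block, 8071 genes were called for PE against baseline against 7899 without it, and no call of either member changed. Counting error is small for both genes, so depth does not limit these results.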

Other observations

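The spread of both genes between replicate libraries differed by group. The limma SE pools it over the groups, and was 0.15 for *Nppa* both in PE against baseline and in PE + THZ1 against THZ1. At baseline the SD of log2(normalized count + 1) was 0.49 for *Nppa* and 0.37 for *Nppb*, higher than that of 96.2% and 92.6% of the genes tested, whose median was 0.115. In this group replicate 2 was 1.79-fold above the mean of the other 2 libraries for *Nppa* and 1.51-fold for *Nppb* on the log scale, a difference above that of 98.8% and 97.1% of genes. With THZ1 alone the SDs were 0.05 and 0.08, against a median of 0.0657. *Nppb* varied more than *Nppa* with PE + THZ1 (0.25 and 0.11), and less with PE (0.08 and 0.17). What sets baseline replicate 2 apart was not tested.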
